A study of Mus musculus with 2 samples.

Results

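Goblet cells of the mouse small intestinal epithelium were taken from a droplet-based single-cell RNA sequencing experiment with 1 library per genotype. The cells were chosen by their measured transcripts. A barcode had to hold more than 500 genes, under 25% of its UMIs (unique molecular identifiers, 1 per counted transcript molecule) from mitochondrial genes, and at least 10% of its UMIs from Muc2, Tff3, Zg16, Fcgbp, Clca1 and Spink4 together. It also had to show fewer than 3 of 8 genes of dividing cells and 0 UMIs of the T cell genes Cd3e and Cd3g. Of 8624 passing cells, 570 were goblet cells by this rule, 206 of 3069 in the Adipfl/fl library and 364 of 5555 in the Adipfl/flpVilli-CreT library.

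Goblet cells are the mucus-secreting cells of the intestinal epithelium. They arise from crypt progenitors that escape Notch signalling and express Atoh1, and they assemble the gel-forming mucin Muc2 in the endoplasmic reticulum (ER), attach O-linked sugars to it in the Golgi and store it in granules. Released mucus carries further goblet proteins, among them trefoil peptides, lectins and proteases, and keeps bacteria away from the cell surface.

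Adipfl/fl mice carry a floxed gene for adiponectin (Adipoq), a hormone best known from fat tissue, and served as the Cre-negative control. Adipfl/flpVilli-CreT mice carry the same floxed gene and Cre recombinase under the villin promoter, which is active in intestinal epithelium, so the deletion is aimed at epithelial cells and not at goblet cells in particular. The cells came from small intestine of 8-week-old male mice, enriched for crypts, and were described as pooled, with 6 mice named but no statement whether per genotype or in all. With 1 library per genotype no test between genotypes is possible. Every interval given here is an exact 95% interval of counting error, which holds nothing of the spread between mice.

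The deposited libraries held 42150623 UMIs in 9791 barcodes (Adipfl/fl) and 63370798 UMIs in 11838 barcodes (Adipfl/flpVilli-CreT). Goblet cells held 1679787 and 2886326 of these UMIs, with a median of 5548 UMIs per cell (range 1632 to 64408) and 6097 (range 1165 to 35550). The libraries had 31 barcodes in common. Of the goblet cells, 2 carried such a barcode, and none was a goblet cell in both. Transcripts can leak from broken cells into all droplets as free RNA, and T cells were used to gauge this. T cells, which do not make mucins, had a summed share of the 6 goblet genes of 0.0297% of UMIs in the Adipfl/fl library and of 0.0735% in the Adipfl/flpVilli-CreT library. In the latter, 6 of 480 T cells were left out of this sum because the 6 genes made up at least 1% of their UMIs (up to 23.5%), against 0 of 366 T cells in Adipfl/fl. Levels are given as UMIs summed over a class of cells per 1000000 UMIs of that class (CPM).

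The 6 genes of the rule made up 36.2% of the UMIs of the median goblet cell in Adipfl/fl mice (range 10.3% to 57.7%) and 33.8% in Adipfl/flpVilli-CreT mice (range 10.1% to 53.8%). Most passing cells were far below the threshold, since 2835 and 4988 had under 1% of their UMIs from these genes. The 3 goblet cells nearest above the threshold in Adipfl/fl had 10.3%, 10.9% and 12%, and the 3 cells nearest below it had 9.54%, 7.99% and 7.88%. In Adipfl/flpVilli-CreT these values were 10.1%, 10.1% and 10.5% above, and 9.94%, 9.84% and 9.73% below. Cells with 5% to 10% numbered 9 in Adipfl/fl and 63 in Adipfl/flpVilli-CreT, and those with 1% to 5% numbered 16 and 126, so intermediate cells were more frequent in the second library. The medians of enterocytes were 0.0313% and 0.0838%. Of all barcodes with at least 10%, numbering 223 and 398, the limit on genes removed 10 and 18, the mitochondrial limit 4 and 2, the limit on dividing cells 0 and 3 and the Cd3 limit 3 and 11.

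**Figure D1:**
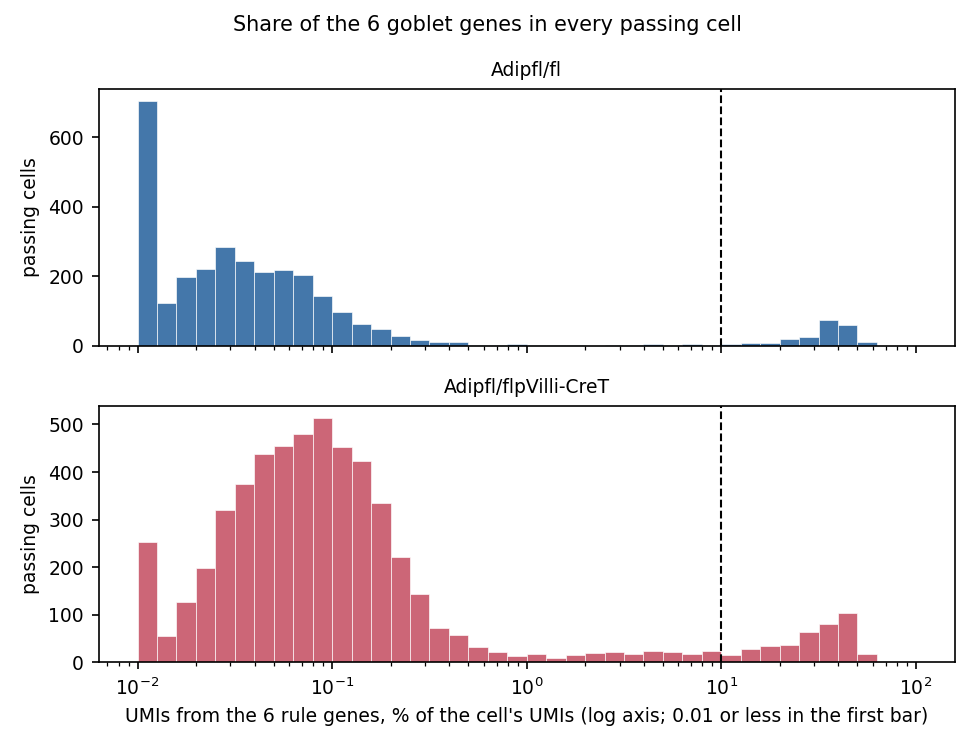
Number of passing cells (y axis) by the percentage of their UMIs from the 6 rule genes (log x axis), 1 panel per library; the dashed line is the 10% threshold. The main body of cells lay under 1%, and the goblet cells formed a second group above the threshold, with 9 cells between 5% and 10% in Adipfl/fl and 63 in Adipfl/flpVilli-CreT.

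To show where transcription of the mucin and of other secreted or folding proteins starts, 7 genes were looked up among RefSeq promoters (GRCm38.p6), and Muc2, Fcgbp and Agr2 were matched. Tff3, Zg16, Clca1 and Spink4 were not. The 250 bases before the start are shown, on the plus strand in all 3, at chr7:141690090-141690339 for Muc2, chr7:28070986-28071235 for Fcgbp and chr12:35992675-35992924 for Agr2. Capitals mark matches to CAGNTG, the E-box form bound by basic helix-loop-helix factors of the Atoh1 family, searched on both strands.
Muc2: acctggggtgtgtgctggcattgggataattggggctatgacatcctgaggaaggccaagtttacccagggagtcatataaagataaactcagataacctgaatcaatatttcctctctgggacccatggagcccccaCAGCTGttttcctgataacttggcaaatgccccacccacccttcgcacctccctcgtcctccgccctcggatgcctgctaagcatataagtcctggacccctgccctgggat
Fcgbp: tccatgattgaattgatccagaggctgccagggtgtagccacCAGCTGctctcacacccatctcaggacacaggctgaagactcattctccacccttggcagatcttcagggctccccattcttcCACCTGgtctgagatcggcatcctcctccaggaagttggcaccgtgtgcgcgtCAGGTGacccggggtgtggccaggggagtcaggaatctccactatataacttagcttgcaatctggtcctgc
Agr2: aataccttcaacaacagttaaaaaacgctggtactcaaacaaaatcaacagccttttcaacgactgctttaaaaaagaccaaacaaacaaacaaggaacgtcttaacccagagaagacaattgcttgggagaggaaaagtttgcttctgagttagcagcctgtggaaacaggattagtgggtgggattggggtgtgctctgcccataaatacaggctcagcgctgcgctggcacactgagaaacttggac
Muc2 had 1 match, Fcgbp 3 and Agr2 0. At least 1 match occurred in 44.8% of 32851 promoters of the same length, and at least 3 in 3.25%. Matches to TGTTTNC on either strand, the core that forkhead factors such as Foxa3 bind, numbered 1 for Muc2, 0 for Fcgbp and 1 for Agr2, against at least 1 in 17.8% of all promoters. In Muc2 this match overlapped the E-box. A match of these letters is a description of the sequence and not a binding site.

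Zg16, a lectin that binds Gram-positive bacteria, and Tff3, a trefoil peptide of mucosal repair, were the leading transcripts of the rule. Zg16 stood at 114723 CPM in goblet cells of Adipfl/fl mice and at 102473 CPM in Adipfl/flpVilli-CreT mice. Tff3 stood at 109800 and 97591 CPM. Together with Muc2 at 50699 and 48943 CPM and Fcgbp, a mucus protein that binds to the mucin network, at 47531 and 40049 CPM, they were far above Spink4 (13778 and 12390 CPM), a small secreted protein of the Kazal inhibitor family, and Clca1 (11404 and 10968 CPM), a secreted metalloprotease of mucus. All 6 were detected in 206 of 206 goblet cells of Adipfl/fl and in 363 of 364 of Adipfl/flpVilli-CreT, where 1 cell lacked Spink4. Tff3 was the most abundant of the 6 in 139 and 217 cells, Zg16 in 48 and 103, Muc2 in 14 and 37, and Fcgbp in 5 and 5. Spink4 led in 0 and 2 cells and Clca1 in none.

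Single goblet cells differed widely in Zg16. It took 1.46% to 35.2% of a cell's UMIs in Adipfl/fl (median 8.43%) and 0.980% to 30.7% in Adipfl/flpVilli-CreT (median 8.47%). Spink4 ranged from 0.0191% to 5.58% and from 0% to 6.67%. Muc2 was more even, with 1.07% to 11.7% (median 6.07%) and 0.956% to 15.3% (median 5.64%). The ranges of the libraries overlapped for all 6 genes.

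**Figure D2:**
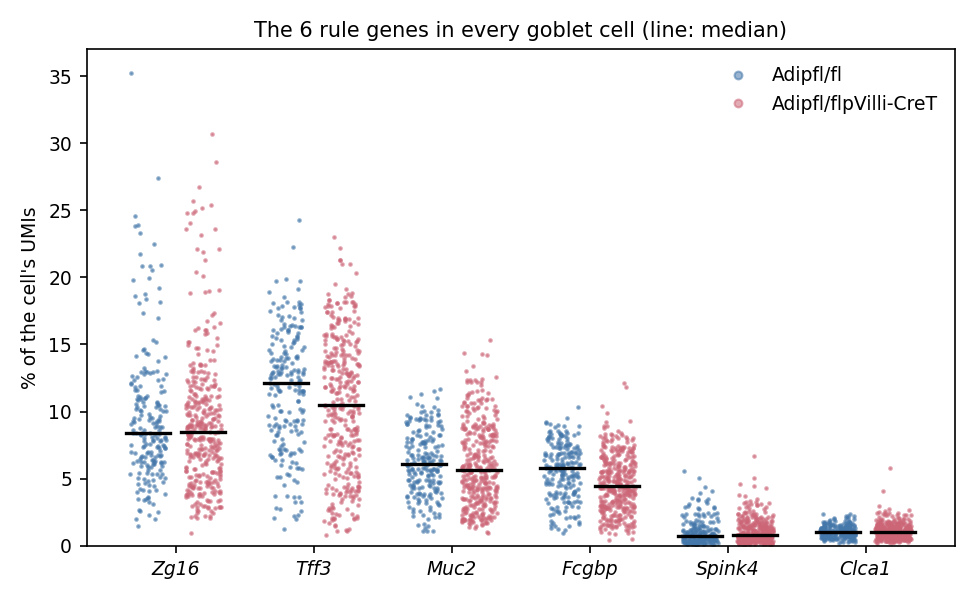
Percentage of a cell's UMIs (y axis) from each rule gene, 1 point per goblet cell, for 206 Adipfl/fl and 364 Adipfl/flpVilli-CreT cells; lines are medians. The distributions of both libraries overlapped for every gene, and Zg16 had the widest range.

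Goblet markers outside the rule matched the name. Agr2, the disulfide isomerase that Muc2 needs for folding, stood at 4272 CPM in goblet cells of Adipfl/fl mice and 5060 CPM in Adipfl/flpVilli-CreT mice, against 7.53 and 32.5 CPM in enterocytes and 5.29 and 18.3 CPM in the T cells with little goblet RNA. The transcription factors were Atoh1, which sets the secretory fate, at 363 and 315 CPM, Spdef, which matures goblet cells, at 211 and 162 CPM, Foxa3 at 208 and 187 CPM, and Creb3l1, a membrane-bound factor of secretory cells, at 158 and 173 CPM. Enteroendocrine cells of the same libraries had 2.26 and 1.58 CPM of Atoh1, and tuft cells 8.15 and 5.0 CPM. These values rest on very few UMIs, since the classes held 442073 and 632660 UMIs (enteroendocrine) and 613214 and 599700 UMIs (tuft). Secreted goblet products were also present. Guca2a, the peptide guanylin that regulates fluid secretion, stood at 2190 and 1608 CPM, the chemokine Ccl6 at 1373 and 1401 CPM and the serine protease Klk1 at 557 and 425 CPM. Muc13, a transmembrane mucin, stood at 2150 and 2233 CPM. Klf4, a factor of terminal differentiation, stood at 1297 and 1065 CPM, and Ern2, the ER stress sensor specific to mucosal epithelia, at 208 and 157 CPM.

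Transcripts of several other cell types were at low levels. The summed level of 14 T cell genes was 54.2 and 51.6 CPM, that of 8 B and plasma cell genes 23.2 and 30.1 CPM, of 8 myeloid genes 4.76 and 40.2 CPM and of 7 fibroblast and muscle genes 1.19 and 2.08 CPM. Their most abundant genes were Gzma, Igkc, Fcer1g and Tagln. At 0 UMIs in both libraries were 3 of the T cell genes, with Cd3e and Cd3g set to 0 by the rule, 3 of the B and plasma cell genes and 5 of the fibroblast and muscle genes. None of these 4 lists had a gene that reached the minimum level for comparison. The sum of 15 enteroendocrine genes was 179 and 193 CPM, and much of it was in 1 cell of each library, with 251 of 256 UMIs of Sst in Adipfl/fl and 292 of 300 UMIs of Chgb in Adipfl/flpVilli-CreT. Enterocyte genes were far higher. The summed level of 30 genes, led by apolipoproteins and fatty acid-binding proteins, was 14342 and 20176 CPM in goblet cells, against 114674 and 108047 CPM in enterocytes and 6626 and 20562 CPM in T cells.

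Goblet cells were set beside enterocytes as a description, because the rule already separated them. The 6 rule genes took 347935 and 312415 CPM in goblet cells, against 604 and 1445 CPM in enterocytes. This lowers the CPM of every other gene in goblet cells, and folds and counts against enterocytes were not scaled for it. Of 2978 genes over the minimum, 340 (11.4%) were at least 2-fold higher in goblet cells in both libraries and 714 (24.0%) at least 2-fold lower. Of 34 other goblet genes compared, 28 were higher and 1 lower. Among the 20 genes with the largest folds, Ido1, the enzyme that starts the breakdown of tryptophan to kynurenine, had 1482 and 1153 CPM against 3.41 and 3.68 CPM in enterocytes. Ramp1, the partner that makes a receptor for the neuropeptide CGRP, had 295 and 227 CPM against 0.588 and 0.749 CPM. Fer1l6, a member of the ferlin family, had 736 and 675 CPM against 1.41 and 2.81 CPM, and Clps, the cofactor of pancreatic lipase, 333 and 249 CPM against 0.471 and 0.937 CPM. The calpains Capn8 and Capn9, Frmd3, Ttc39a and Tnfaip8 also stood among these 20.

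Mucin O-glycosylation genes were mostly higher in goblet cells, with 20 of 27 at least 2-fold higher than in enterocytes and 2 lower, beside 11.4% and 24.0% of all genes. The median log2 fold was 1.96 in Adipfl/fl and 1.85 in Adipfl/flpVilli-CreT, against -0.39 and -0.34 over all genes. Galnt7, which adds N-acetylgalactosamine to partly glycosylated mucin, stood at 420 and 441 CPM against 87.8 and 86.1 CPM. Gcnt3, which builds branched core structures, stood at 333 and 337 CPM against 2.24 and 2.5 CPM. St3gal4, a sialyltransferase, was lower than in enterocytes, with 344 and 464 CPM against 1280 and 1304 CPM. Gfpt1, the first enzyme of the pathway to N-acetylglucosamine, stood at 364 and 433 CPM, and Chst4, a sulfotransferase, at 171 and 133 CPM.

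Of 19 genes of disulfide formation and ER folding, 11 were higher than in enterocytes and 0 lower. Txndc5, a disulfide isomerase, stood at 760 and 710 CPM against 14.7 and 15.9 CPM, and Qsox1, a Golgi sulfhydryl oxidase, at 729 and 697 CPM against 19.2 and 30.7 CPM. The chaperone Hspa5 (BiP) stood at 492 and 593 CPM and the disulfide isomerases P4hb and Pdia6 at 811 and 976 CPM and at 146 and 209 CPM. Genes of the unfolded protein response followed with 7 of 14 higher and 0 lower, and translocon genes with 10 of 26 higher and 0 lower (median log2 fold 0.91 and 1.08). ER to Golgi transport had 4 of 36 higher, a share near the 11.4% over all genes, and 1 lower, with medians of -0.25 and -0.11. Of 19 genes of granule release and ion transport, 9 were higher and 2 lower. They included the granule GTPases Rab27a, at 140 and 132 CPM against 0.235 and 0.562 CPM, and Rab27b, at 439 and 377 CPM against 15.4 and 16.8 CPM, and their effector Sytl2, at 828 and 679 CPM against 2.82 and 2.75 CPM. Of 30 ribosomal protein genes 9 were higher and 0 lower, and of 12 mitochondrial mRNAs 0 were higher and 6 lower. Over all genes, beside which each of these lists stands, 11.4% were higher and 24.0% lower.

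Goblet cells also held antimicrobial transcripts, unevenly from cell to cell. Defa24, an alpha-defensin best known from Paneth cells, had a variance relative to its mean of 94.6 in Adipfl/fl and 49.2 in Adipfl/flpVilli-CreT among thinned goblet cells, the first of 2120 genes by the mean of both libraries, with Zg16 higher in the second library (56.9). It stood at 5107 CPM in goblet cells of Adipfl/fl and 2845 CPM in those of Adipfl/flpVilli-CreT, against 9.53 and 11.1 CPM in enterocytes. Its reads may include those of near-identical defensin genes. In Adipfl/fl 2 cells held 60.2% of its 8578 UMIs. After thinning to 2000 UMIs, Defa24 was detected in 35.0% of goblet cells (28.4% to 42.0%) and 31.0% (26.2% to 36.2%), against 0.571% and 2.08% of T cells and 0.825% and 2.73% of enterocytes. Before thinning, 88 and 138 goblet cells held at least 1 UMI of Defa24, 47 and 67 at least 10, and 12 and 16 at least 100.

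At least 1 of 9 Paneth cell markers was detected in 46.5% and 42.8% of thinned goblet cells, against 0.571% and 3.46% of T cells. Before thinning, Defa24 alone held 8578 of 9695 UMIs of these 9 genes in Adipfl/fl and 8211 of 10457 in Adipfl/flpVilli-CreT. In the longer antimicrobial and Paneth list, 13 genes had 0 UMIs in goblet cells of both libraries. Itln1, the sugar-binding lectin intelectin, was found in 20.5% and 23.3% of thinned goblet cells, against 0% and 0.924% of T cells. The lectin Reg3b stood at 3343 and 3624 CPM in goblet cells, below 11728 and 12188 CPM in enterocytes, and was detected in 82.5% and 79.9% of thinned goblet cells and in 46.9% and 49.0% of thinned T cells. Lypd8, which holds flagellated bacteria off the epithelium, was higher than in enterocytes, with 3199 and 3496 CPM against 812 and 869 CPM. The full antimicrobial list was detected in 100% and 99.7% of thinned goblet cells, but also in 59.1% and 62.6% of thinned T cells, where Reg3b alone was found in 46.9% and 49.0%.

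**Figure D3:**
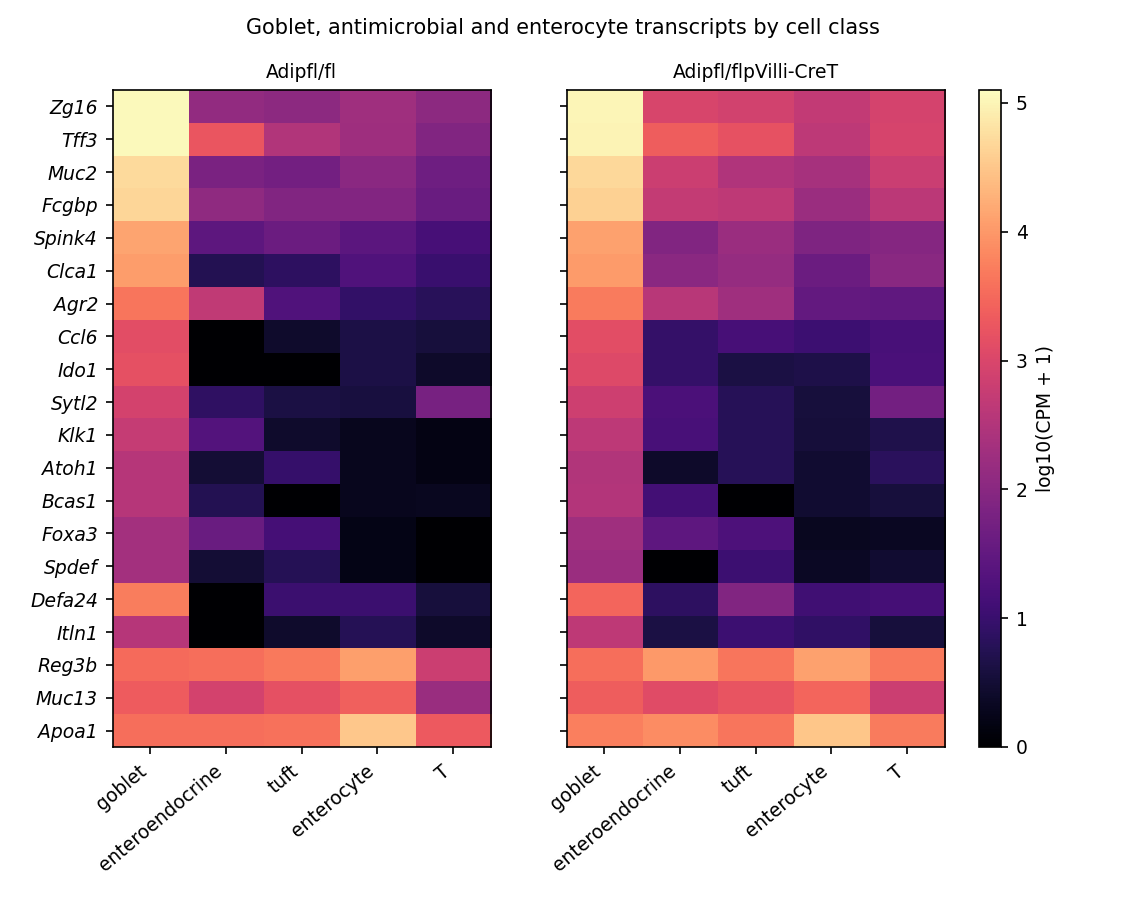
Levels of goblet, antimicrobial and enterocyte transcripts (CPM of summed UMIs) by cell class and library. Goblet cells had the highest Agr2 and Defa24 of the classes drawn, while Reg3b and Apoa1 were higher in enterocytes.

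Some transcripts of goblet cells varied together in both libraries. Correlations were computed across thinned cells (n = 200 and 348) for 496 pairs of 32 genes, and describe cells that share a library, its free RNA and a fixed total of UMIs. Spearman's rho was at least 0.4 in both libraries for 26 pairs and at most -0.4 for 18. Ido1 varied with Muc2 (0.54 in Adipfl/fl and 0.60 in Adipfl/flpVilli-CreT), with the tight junction gene Cldn4 (0.56 and 0.47) and with Mxd1, an antagonist of Myc (0.53 and 0.52). Agr2 varied with Lypd8 (0.50 and 0.51), with the chemokine Ccl6 (0.46 and 0.52) and with Spink4 (0.57 and 0.41). Ccl6 in turn varied with Guca2a (0.50 and 0.45).

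Other pairs ran against each other. Agr2 ran against Mxd1 (-0.49 and -0.48), Cldn4 (-0.42 and -0.47) and Ido1 (-0.42 and -0.42), and Guca2a against Ido1 (-0.48 and -0.44). Lypd8 and Ido1 were at -0.06 and -0.24, and Muc2 and Agr2 were at -0.33 and -0.39. Zg16 varied with the calcium-binding S100a6 (0.66 and 0.69), with Tff3 (0.53 and 0.51) and with Clca1 (0.46 and 0.56), as did Defa24 and Itln1 (0.51 and 0.48). Zg16 ran against Apoa1 (-0.49 and -0.50).

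A further difference among goblet cells was in mitochondrial mRNA. The 13 mitochondrial mRNAs made up at least 2% of UMIs in 50 of 206 cells of Adipfl/fl (24.3%, 18.6% to 30.7%) and in 144 of 364 of Adipfl/flpVilli-CreT (39.6%, 34.5% to 44.8%). The 2% line was set after seeing the data, it divides a range and no cell types, and 14 and 38 cells lay between 1.6% and 2.5%. Above the line the 6 rule genes made up a median of 22.8% and 22.6% of UMIs, against 38.6% and 40.2% under it. The 6 enterocyte genes that define enterocytes here made up 1.14% and 1.74% above it, against 0.286% and 0.350%. Across all goblet cells (n = 206 and 364) the share of mitochondrial mRNA ran against that of the rule genes (Spearman's rho -0.58 and -0.73) and with that of the enterocyte genes (0.35 and 0.58). All these shares have the cell's total UMIs as their denominator, and the cells were chosen by limits on both the rule genes and the mitochondrial genes, so a negative relation between these is partly built in.

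Single genes differed between these ranges. Apoa1 was 5.51-fold and 5.89-fold higher above the line, and the brush border sugar-splitting enzyme Sis 21.8-fold and 7.80-fold. Ido1 was lower above it, at 0.149 and 0.305 of its level under it, whereas Agr2 changed little (1.05 and 0.768). Cells above the line had more UMIs, with medians of 7398 and 7564 against 5248 and 5451. The part of depth and of enterocyte RNA in these differences was not tested.

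**Figure D4:**
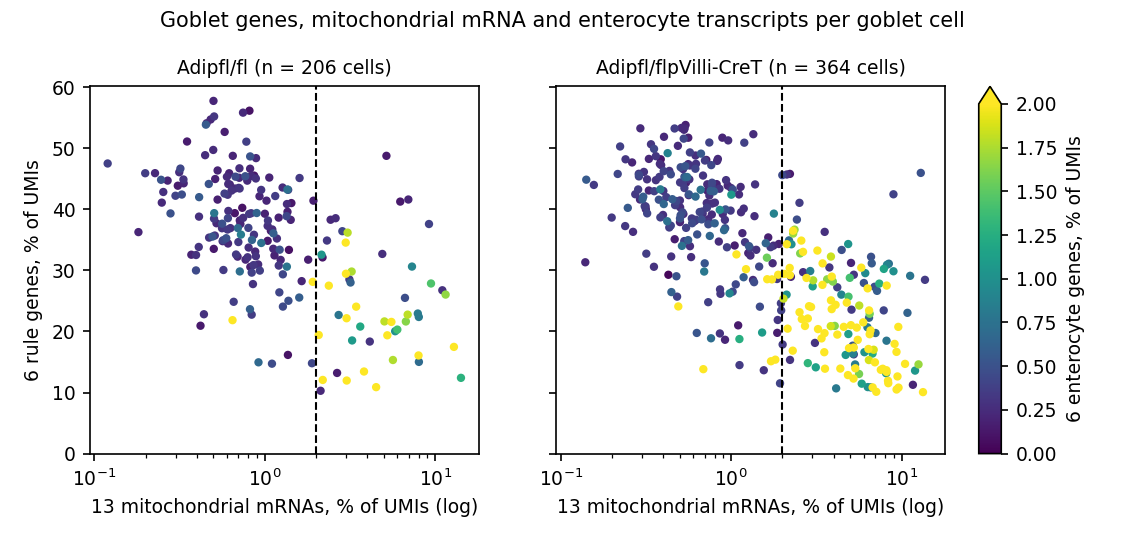
Percentage of UMIs from the 6 rule genes (y axis) against the percentage from 13 mitochondrial mRNAs (log x axis), 1 point per goblet cell, coloured by enterocyte transcripts; the dashed line is 2%. In both libraries the rule genes were lower to the right of the line, with medians of 22.8% and 22.6% against 38.6% and 40.2%, and enterocyte transcripts were higher.

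The first question between genotypes was whether the share of goblet cells differed. Goblet cells were 6.71% of passing cells in Adipfl/fl mice (5.85% to 7.66%) and 6.55% in Adipfl/flpVilli-CreT mice (5.92% to 7.24%), a ratio of 0.976 with a counting interval of 0.821 to 1.16. The ratio depended on the mitochondrial limit. Without it goblet cells numbered 210 and 366, against 206 and 364 with it, while passing cells rose from 3069 and 5555 to 7739 and 9818. The shares were then 2.71% and 3.73%, a ratio of 1.37 with a counting interval of 1.16 to 1.64. Adipoq had 0 UMIs in goblet cells of both genotypes, where the floor of 3 UMIs used here equals 1.79 and 1.04 CPM. The deletion could thus not be checked in these cells. The receptor genes Adipor2 (260 and 271 CPM) and Adipor1 (81.0 and 92.2 CPM) were present in both, and Appl2, an adaptor of these receptors, stood at 133 and 107 CPM. None of the 3 tested genes of this list was past 1.5-fold, which is near the shares over all genes (4.33% higher and 1.06% lower).

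Of 2630 genes with at least 50 CPM in the higher library and 20 UMIs in all, 114 (4.33%) were at least 1.5-fold higher in goblet cells of Adipfl/flpVilli-CreT mice and 28 (1.06%) at least 1.5-fold lower, with a median log2 fold of 0.06. Scaling without mitochondrial and rule genes moved the counts to 91 and 46, and scaling by the median ratio to 92 and 43.

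The levels of the 6 rule genes are a description, because they chose the cells in both libraries. Fcgbp in Adipfl/flpVilli-CreT was at 0.843 of its level in Adipfl/fl (0.835 to 0.850), Zg16 at 0.893 (0.888 to 0.898), Tff3 at 0.889, Spink4 at 0.899, Clca1 at 0.962 and Muc2 at 0.965. Within the ranges under and above 2% mitochondrial mRNA, Zg16 was at 0.964 and 0.964, Tff3 at 0.965 and 0.976 and Muc2 at 1.03 and 1.12, with Fcgbp at 0.901 and 0.890. Of 36 other goblet genes tested of 47 listed, 0 were higher by 1.5-fold and 1 lower (Ang4), beside 4.33% and 1.06% of all genes, with a median log2 fold of -0.13. Counts this small in a list of this size are near the shares over all genes. Agr2 was at 1.18 (1.15 to 1.22), Atoh1 at 0.869 (0.783 to 0.964) and Spdef at 0.766 (0.665 to 0.881). Under and above 2% mitochondrial mRNA, Agr2 was at 1.35 and 0.990, Atoh1 at 0.909 and 1.16 and Spdef at 0.801 and 0.903. The directions of Agr2 and Atoh1 thus did not hold in both ranges.

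For the lists of mucin production, the counts past 1.5-fold were also near the shares over all genes (4.33% higher and 1.06% lower). Mucin O-glycosylation had 0 of 28 tested, ER folding 0 of 20, the unfolded protein response 0 of 18, granule release 0 of 16 and Notch and lineage factors 0 of 16. The translocon list had 2 of 30 higher, Sec61g at 2.51-fold and Tmem258, a subunit of oligosaccharyltransferase, at 1.58-fold. Sec61g, a small subunit of the translocation channel, was also higher in enterocytes (1.85-fold) and T cells (1.87-fold). ER to Golgi transport had 1 of 35 higher, the GTPase Sar1b at 1.59-fold. Median log2 folds were 0.22 for ER folding, 0.24 for the translocon and 0.22 for ER to Golgi transport, beside 0.06 over all genes. In goblet cells with at least 2% mitochondrial mRNA they were 0.0011, -0.079 and 0.052, so these medians did not hold there.

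Mt1, the metal-binding metallothionein, had the largest difference that was spread over many cells. It stood at 115 CPM in goblet cells of Adipfl/fl and 1358 CPM in those of Adipfl/flpVilli-CreT, 11.8-fold higher (10.2 to 13.7), and was detected in 46 of 206 and 355 of 364 goblet cells. It was also 8.03-fold higher in enterocytes and 29.5-fold higher in T cells. Within the ranges of mitochondrial mRNA it was 12.7-fold and 9.52-fold. The mitochondrial transcript mt-Nd3, of respiratory complex I, was 3.61-fold higher (3.24 to 4.03), against 2.47-fold in enterocytes and 3.70-fold in T cells, and 2.20-fold and 2.85-fold within the ranges of mitochondrial mRNA. A difference found in all classes of a library cannot be told apart from a difference between the libraries.

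Enterocyte genes were higher in goblet cells of Adipfl/flpVilli-CreT mice. Of 27 tested, 13 were at least 1.5-fold higher and 0 lower, beside 4.33% and 1.06% of all genes, with a median log2 fold of 0.55 beside 0.06. Apoa1 stood at 3521 and 5459 CPM (1.55-fold), and the fold was 1.72 for Apoa4, 1.63 for Sis, 1.89 for the glucose transporter Slc5a1, 2.14 for the peptide transporter Slc15a1 and 2.52 for the amino acid transporter Slc6a19. Fabp1 (1.14-fold) and Fabp2 (1.13-fold) were under the threshold. In T cells Apoa1 was at 2.42. Its fold in enterocytes was 0.942, but Apoa1 is 1 of the 6 genes that define that class, so this value is not independent of the selection. Within the ranges of mitochondrial mRNA the fold of Apoa1 was 1.16 and 1.25, that of Sis 3.05 and 1.09, and that of Fabp1 3.18 under the line and 0.676 above it, so the genes did not move evenly. The summed enterocyte list in T cells, 6626 and 20562 CPM, was also higher in the second library, but the median T cell had 0.224% and 0.290% of its UMIs from the list and the 95th percentile was 2.30% and 6.24%, so the sum rested on a minority of T cells. The part of RNA from other cells in these values was not tested.

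Some genes of antigen presentation and of the villus tip were higher too. Of 15 type 2 and immune genes tested, 3 were higher and 1 lower (median log2 fold 0.13), beside 4.33% and 1.06% of all genes. Cd74, the invariant chain of MHC class II, stood at 60.1 and 132 CPM (2.20-fold, 1.76 to 2.77), against 0.905 in enterocytes and 2.69 in T cells, and H2-Ab1 was at 1.64. Ccl25, a chemokine that draws T cells to the small intestine, was at 1.57 and Cxcl16, a membrane-bound chemokine, at 0.636. In the villus list 3 of 21 genes were higher and 0 lower, beside the same shares, Ada, an enzyme of adenosine breakdown, at 2.31-fold with Slc28a2 and Nt5e, and the median log2 fold was -0.02. Ada was 1.51-fold higher in enterocytes and 3.17-fold in T cells. Pmp22 (2.42-fold) and Clca4a (2.27-fold) were also among the 12 largest differences upward, with Gm10076 (2.16-fold), a near copy of a ribosomal protein gene whose reads may belong to its parent.

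Among the genes lower in Adipfl/flpVilli-CreT, Nupr1, a stress-induced regulator of transcription, did not rest on single cells. It stood at 511 CPM in Adipfl/fl and 278 CPM in Adipfl/flpVilli-CreT, 0.545 of its level (0.494 to 0.600), and at 0.544 without the richest cell of each library. In both ranges of mitochondrial mRNA it was lower, at 0.661 and 0.467. Defa24 was at 0.557 (0.540 to 0.574) but at 0.697 without the richest cells, and its direction differed between the ranges, with 0.510 under the line and 1.98 above it. The counting intervals of the shares of thinned goblet cells with Defa24, given above, overlapped. Of 10 genes tested of the antimicrobial and Paneth list, 1 was higher and 4 were lower (median log2 fold -0.30), beside 4.33% and 1.06% of all genes. The higher gene was Lyz1, the lysozyme of Paneth cells, at 2.12-fold and 1.31-fold without the richest cells. The lower genes were Ang4, Defa24, Defa39 and Nupr1. Without the richest cells Defa39 was at 0.777 (0.345 to 1.80) and Defa24 at 0.697, so neither was past 1.5-fold, whereas Ang4 (0.277) and Nupr1 (0.544) were. Mcf2l, a guanine nucleotide exchange factor, was at 0.659, Clec2d at 0.667 against 0.527 in enterocytes, and Bace2, a membrane protease, at 0.675. Mir6236 was lower in goblet cells (0.474), enterocytes (0.478) and T cells (0.40) alike.

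Several of the largest differences rested wholly or in part on 1 cell. The neuropeptide gene Nts had 7 and 333 UMIs, 316 of them in 1 goblet cell of Adipfl/flpVilli-CreT mice, and Chgb of hormone granules had 11 and 300, with 292 in 1 cell. Sst, the hormone somatostatin, had 256 UMIs in Adipfl/fl, 251 of them in 1 cell, and 1 UMI in Adipfl/flpVilli-CreT. Defa39 had 168 and 36 UMIs, with 156 in 1 cell. Ang4, an antimicrobial ribonuclease, had 179 and 55, with 78 in 1 cell, and was at 0.179 with all cells and at 0.277 without the richest. Dmbt1, a secreted scavenger receptor, was at 0.329 with all cells and at 1.30 without the richest, which held 159 of 200 UMIs. Doublets were not removed, and their part in these values was not tested. Nts aside, these genes account for 1 higher (Chgb) and 1 lower (Sst) of the 2 enteroendocrine genes tested, beside 4.33% and 1.06% of all genes. Without the richest cells Chgb was at 0.914 (0.264 to 3.55), and Sst had 5 and 0 UMIs.

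Cytosolic ribosomal protein genes had a median log2 fold of -0.26 with 1 of 31 lower, Rpl5 at 0.659, beside 1.06% of all genes lower. The direction did not hold. The median was 0.14 without the deepest goblet cell of Adipfl/fl, 0.18 with goblet cells weighted equally, 0.39 without the 8% of cells with the most UMIs and 0.20 in cells under 2% mitochondrial mRNA, but -0.89 in cells at or above 2%. Without the richest cells Rpl5 was at 1.00. Rpl10a, a ribosomal protein gene outside this list, was at 0.665 and at 0.844 without the richest cells. Of 11 mitochondrial mRNAs tested, 3 were higher, mt-Nd3, mt-Nd1 and mt-Atp8, beside 4.33% of all genes, with a median of 0.45. It was 0.05 in the cells under 2%, a value partly fixed by the split, since the line was drawn on these mRNAs. Stress genes had 1 of 13 higher (Mt1), and the list of fat oxidation and AMPK targets 0 of 7 past the threshold. Over all genes 4.33% were higher and 1.06% lower, and counts this small are near those shares. The crypt base list had 1 of 4 tested higher, Cd24a at 1.76-fold, and 1 lower, Dmbt1, beside the same shares. Without the richest cells, however, Cd24a was at 1.38 and Dmbt1 at 1.30.

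**Figure D5:**
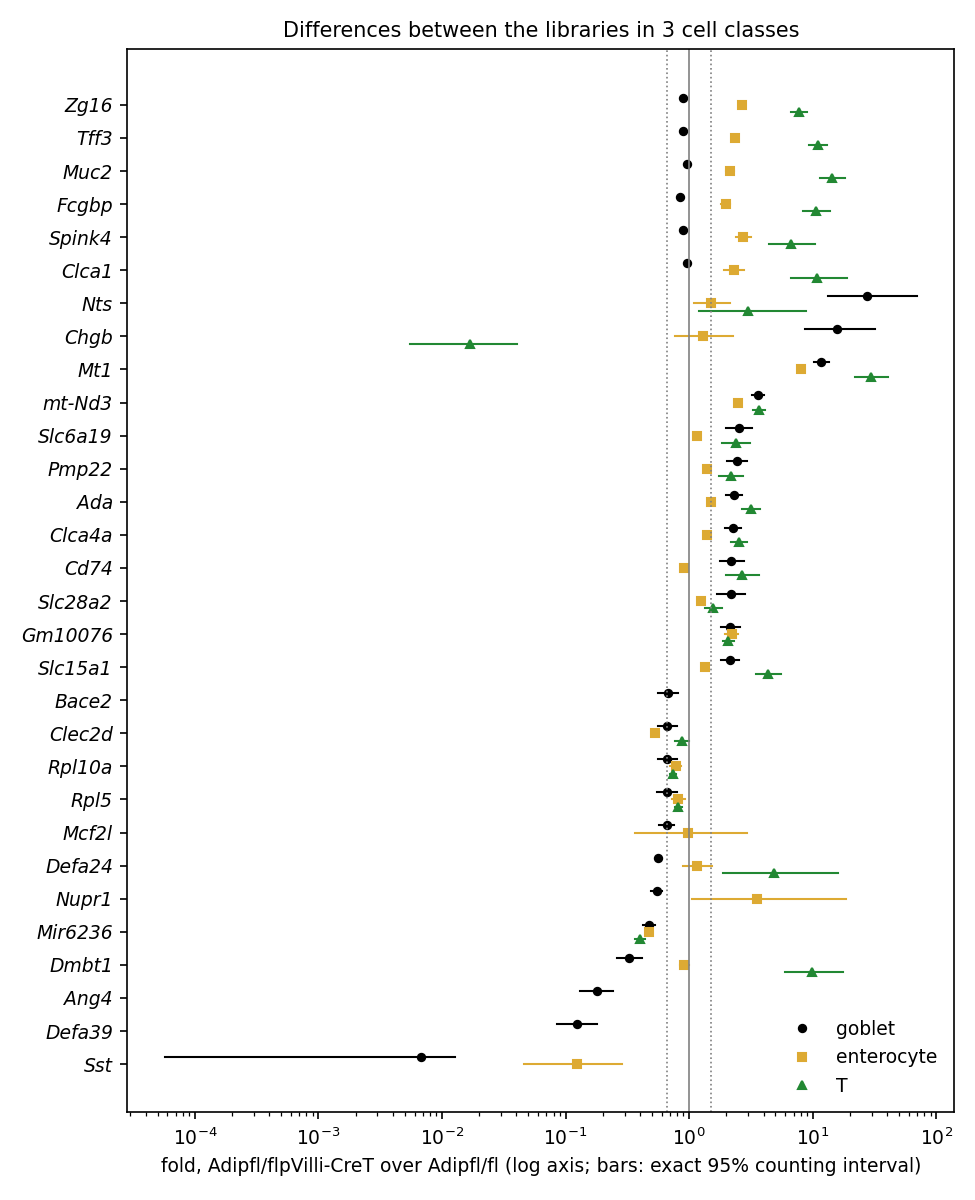
Fold of Adipfl/flpVilli-CreT over Adipfl/fl (log x axis) for named genes in goblet cells, enterocytes and T cells; bars are exact 95% counting intervals. Mt1 and mt-Nd3 lay to the right of 1.5 in all 3 classes, and Cd74 in goblet and T cells but not in enterocytes. The T cell points of the 6 rule genes include the 6 T cells with at least 1% of their UMIs from these genes.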

How the data were processed

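Small intestinal epithelium of Adipfl/fl and Adipfl/flpVilli-CreT mice was measured with the 10x Genomics 3′ kit, with 1 library per genotype. The authors aligned the reads to mm10 and counted UMIs with Cell Ranger (7.1.0 per the file headers, while the methods name another release), and the tables they deposited hold raw, unnormalized UMI counts for 55357 genes in every barcode.

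Goblet cells were selected by the stated rule. The other classes were assigned in a fixed order: cycling cells (at least 3 of 8 genes), T cells (at least 2 UMIs of Cd3d, Cd3e and Cd3g), tuft cells (at least 3 of 8 genes), enteroendocrine cells (at least 3 of 9) and enterocytes (at least 5% of UMIs from Fabp1, Fabp2, Apoa1, Apoa4, Apoc3 and Rbp2). For each class, UMIs of a gene were added up and expressed per 1000000 UMIs of that class (CPM). Folds have exact conditional Poisson 95% intervals and shares exact Clopper-Pearson 95% intervals, which cover counting error only. In folds, counts under 3 UMIs were set to a floor of 3 UMIs, which is not an exact limit. No p-value was computed. Detection in cells and correlations were read after thinning each cell to 2000 UMIs, which left 200 and 348 goblet cells. Doublets were not removed.

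The members and the 25 gene lists were chosen with earlier results of these data known. Named genes were the rule genes, the 4 most abundant of each list and those past 1.5-fold, the 12 largest differences each way, the 20 largest folds over enterocytes, the 15 most abundant and the 15 most variable, of which a part is printed. The level of the tuft cell list is not reported here. The line at 2% mitochondrial mRNA and the T cells set aside for goblet RNA were chosen after seeing the data. Analyses ran in scipy 1.17.1, pandas 2.3.3 and numpy 2.4.6 under Python 3.11.15, with figures from matplotlib 3.10.9. The calculation of folds was tested on simulated data.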

Additional observations from a re-analysis of the deposited data

Results flagged for a closer look

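For some genes the fold of Adipfl/flpVilli-CreT over Adipfl/fl was past 1.5 in goblet cells and slightly under 1 in enterocytes of the same libraries, where none was past 1.5-fold. Each value rests on 1 library per genotype, and the difference was not tested. Apoa1 was at 1.55 in goblet cells and 0.942 in enterocytes, Apoa4 at 1.72 and 0.918, and Apob at 1.57 and 0.970. Apoa1 and Apoa4 helped to define the enterocyte class, so their values in it are not independent of the selection. Ccl25 was at 1.57 and 0.92, Cd74 at 2.20 and 0.905, and H2-Ab1 at 1.64 and 0.868. In T cells the same 6 genes were at 2.42 (Apoa1), 2.22 (Apoa4), 2.55 (Apob), 4.16 (Ccl25), 2.69 (Cd74) and 1.81 (H2-Ab1). Over the settings tried, the lowest goblet cell folds were 1.16 (Apoa1), 1.36 (Apoa4), 1.08 (Apob), 1.06 (Ccl25), 1.47 (Cd74) and 1.27 (H2-Ab1), so each was under 1.5 in at least 1 setting.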

How the results depend on the processing

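No paired analysis was possible because there was 1 library per genotype. The ratio of goblet shares was 1.37 with no mitochondrial limit and 1.37 with the limit read from the 13 mitochondrial mRNAs, and between 0.869 and 1.08 in the other settings. Genes at least 1.5-fold higher numbered 222 with a rule share of at least 5%, 178 without the 8% of goblet cells with the most UMIs, 188 with cells weighted equally, 31 at a minimum of 200 CPM and 601 at 10 CPM. Genes at least 1.5-fold lower numbered 45 with a rule share of at least 20%, 48 without the 8% of cells, 46 with scaling without mitochondrial and rule genes, 43 with scaling by the median ratio, 51 with cells weighted equally, 4 at 200 CPM and 323 at 10 CPM. By settings chosen after seeing the data, they numbered 63 under 2% mitochondrial mRNA and 237 at or above it.

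Of 56 genes followed, 39 of the 46 past 1.5-fold kept their direction in every setting and 7 did not, and 32 of the 46 were under 1.5-fold in at least 1 setting. Without the 8% of cells with the most UMIs, the log2 fold was 1.31 for Dmbt1, -0.87 for Chgb, -0.51 for Lyz1, 0.27 for Rpl10a and 0.59 for Rpl5. Without the richest cell it was 0.38 for Dmbt1 and -0.13 for Chgb, and the log2 fold of Rpl5 was 0.000797. Dmbt1 was at 0.49 with a rule share of at least 20%, and Rpl5 at 0.13 with cells weighted equally. Under 2% mitochondrial mRNA, Dmbt1 was at 1.20, Rpl10a at 0.048 and Rpl5 at 0.15, and at or above it Defa24 was at 0.99 and Nts at -0.076. Without the deepest Adipfl/fl goblet cell, Dmbt1 was at 0.63 and Rpl5 at 0.067. The cause was not tested, apart from fewer or more genes at other minimum levels. Low counts limit genes under about 50 CPM.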

Other observations

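The most abundant transcripts outside the 6 rule genes were mt-Rnr2, Malat1 and Rn18s-rs5. The mitochondrial ribosomal RNA mt-Rnr2 stood at 26056 CPM in Adipfl/fl and 27619 CPM in Adipfl/flpVilli-CreT. Malat1, a nuclear noncoding RNA, stood at 22754 and 22515 CPM and Rn18s-rs5, a ribosomal RNA copy, at 21243 and 15860 CPM. The 15 most abundant transcripts outside the rule also included the mitochondrial mt-Cytb (5756 and 8267 CPM) and mt-Rnr1 (6705 and 7307 CPM), S100a6 (6044 and 6850 CPM), Lgals4, an epithelial galectin (5673 and 5500 CPM), and Krt8, an epithelial keratin (4140 and 4476 CPM).

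The limit on dividing cells removed 0 (Adipfl/fl) and 3 (Adipfl/flpVilli-CreT) barcodes with at least 10% of their UMIs from the 6 genes. Cycling cells with at least 1% of their UMIs from the 6 genes numbered 4 of 186 in Adipfl/fl and 81 of 396 in Adipfl/flpVilli-CreT.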
